A study of Mus musculus with 6 samples.

Results

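MHC class I presentation genes were followed through the immune cells of a mouse melanoma, by cell type and by 4 conditions that cross a glucocorticoid receptor deletion with PD-1 blockade. The set was defined by name. It holds 10 of the 32285 genes counted: the heavy chains H2-K1, H2-D1 and H2-T23, the light chain B2m, the peptide transporter genes Tap1 and Tap2, Tapbp, Psmb8, Psmb9 and Nlrc5. Each symbol was present once in both libraries. Single cells sorted for the leukocyte marker CD45 were profiled by CITE-seq, which counts the messenger RNAs of a cell together with antibody tags on its surface.

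Tumours were grown from 250000 YUMM1.7 cells, a mouse melanoma line, under the skin of female C57BL/6J mice aged 8 weeks. All mice carried the Nr3c1 gene, which encodes the glucocorticoid receptor, flanked by loxP sites on both alleles. GRf/f-LysMCre mice also carried a Cre recombinase driven from the Lyz2 (LysM) locus, which is active in macrophages, monocytes and neutrophils, and GRf/f mice lacked it. Each genotype was dosed with anti-PD-1 or with an isotype control antibody at 12.5 mg/kg, 2 times per week for 3 weeks from about day 7, and tumours were taken at day 28. The 4 groups were therefore GRf/f-LysMCre mice with anti-PD-1, GRf/f-LysMCre mice with isotype, GRf/f mice with anti-PD-1 and GRf/f mice with isotype, with 4 mice in each. Cells of every mouse were tagged with a hashtag antibody, and 8 mice, 2 per group, were mixed into each of 2 pools before sorting.

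MHC class I molecules display peptides from inside the cell to CD8 T cells and, for some heavy chains, to receptors of NK cells. A polymorphic heavy chain pairs with beta-2 microglobulin and is loaded in the endoplasmic reticulum with peptides that the proteasome cuts and the TAP transporter pumps in. Interferons, with interferon gamma the strongest, raise most of these genes together through IRF1 and the transactivator NLRC5. Among the genes described here, H2-K1 and H2-D1 encode classical heavy chains and H2-T23 encodes Qa-1, a non-classical heavy chain bound by the inhibitory receptor CD94-NKG2A. B2m encodes beta-2 microglobulin, Tapbp encodes tapasin, which tethers empty class I molecules to TAP, and Psmb8 and Psmb9 encode catalytic subunits of the immunoproteasome.

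Most of these genes lie together on chromosome 17, the mouse MHC chromosome. In the RefSeq annotation of the GRCm38.p6 build, Psmb9 (chr17:34182030-34187330), Tap1 (chr17:34187556-34197225), Psmb8 (chr17:34198195-34201454) and Tap2 (chr17:34204479-34216321) follow one another. Tapbp (chr17:33919478-33929290) and H2-K1 (chr17:33996012-34000619) lie on one side of that block, and H2-D1 (chr17:35263094-35267497) and H2-T23 (chr17:36029977-36032701) on the other. B2m (chr2:122147687-122153082) and Nlrc5 (chr8:94434335-94527272) lie elsewhere. Sequence upstream of the annotated start was read for 8 of the 10 genes, the exceptions being Tap2 and Nlrc5, and 4 windows are shown because they carry the short motifs known from class I promoters. They run 5′ to 3′ on the strand of the gene named, 250 bases up to the start, or for Tap1 the whole 225 bases that separate it from Psmb9, which is read in the other direction. Capitals mark matches to GGGGATTCC (an NF-kappa-B type element), TGACG (the core of the X2 box), CCAAT (the Y box type element) and GAAANNGAAA (an interferon-stimulated response element type), on either strand.
H2-D1, chr17:35262844-35263093, plus strand: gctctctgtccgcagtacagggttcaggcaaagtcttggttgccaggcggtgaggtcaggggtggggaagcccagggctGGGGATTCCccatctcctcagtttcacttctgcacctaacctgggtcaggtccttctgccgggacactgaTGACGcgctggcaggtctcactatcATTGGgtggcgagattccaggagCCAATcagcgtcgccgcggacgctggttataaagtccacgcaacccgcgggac
B2m, chr2:122147437-122147686, plus strand: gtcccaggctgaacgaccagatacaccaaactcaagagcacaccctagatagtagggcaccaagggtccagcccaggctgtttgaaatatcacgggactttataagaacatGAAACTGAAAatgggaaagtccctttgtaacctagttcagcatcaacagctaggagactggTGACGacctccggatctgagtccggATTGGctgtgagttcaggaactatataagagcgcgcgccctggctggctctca
H2-T23, chr17:36032702-36032951, minus strand: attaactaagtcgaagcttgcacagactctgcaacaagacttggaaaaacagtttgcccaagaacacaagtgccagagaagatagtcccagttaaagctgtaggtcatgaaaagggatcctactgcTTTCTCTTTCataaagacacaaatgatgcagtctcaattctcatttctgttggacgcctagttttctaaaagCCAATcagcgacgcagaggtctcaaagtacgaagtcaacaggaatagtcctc
Tap1 to Psmb9, chr17:34187331-34187555, plus strand: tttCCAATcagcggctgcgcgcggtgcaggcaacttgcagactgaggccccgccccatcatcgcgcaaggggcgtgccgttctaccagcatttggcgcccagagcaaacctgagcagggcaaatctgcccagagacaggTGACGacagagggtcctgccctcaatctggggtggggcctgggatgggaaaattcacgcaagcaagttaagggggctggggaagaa

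The NF-kappa-B type letters were found upstream of H2-K1 and H2-D1, 2 of the 8 genes, and in 0.213% of 32851 promoter windows of the same length in RefSeq. In both, the same run of elements followed in the same order, GGGGATTCC, TGACG and a reversed CCAAT. The X2 type letters, TGACG, were found upstream of 5 of the 8 genes (H2-K1, H2-D1, B2m, Tap1 and Psmb9) and in 17.8% of all windows, and CCAAT upstream of 7 of the 8 and in 33.8% of all windows. GAAANNGAAA was found upstream of B2m and H2-T23, against 2.98% of all windows, and TTCNNNGAA, the STAT type element, upstream of Psmb8, against 7.02%. Within a gene no 2 matches shared a base, other than TTCNNNGAA, which reads the same on both strands. Tap1 and Psmb9 share the bases between them, so their TGACG is one match counted for both genes, and so is their CCAAT. These matches describe the sequence and were not tied to binding.

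Levels are given as CPM, the count of a gene per 1000000 unique molecular identifiers (UMIs) summed over the cells of a mouse and a cell class, so a value is a share of that class's RNA. Levels were compared within a gene, and a ratio of 2 genes only with the same ratio in other classes or groups. The matrices held 15301 barcodes in pool E5 and 16614 in pool E6, and 16867 cells were assigned to 1 mouse, between 133 and 3083 cells and between 1610059 and 29402226 UMIs per mouse. Clustering without the 10 genes gave 27 clusters. Of these, 20 were named from marker genes in 14 classes, and 7 with 3415 cells stayed unnamed. They were called like a cell type, as in macrophage-like, because only their markers identify them. The CD4 T-like cluster was nearly tied. Its mean log2 fold over other cells was 2.30 for CD4 T markers and 2.17 for gamma delta T markers, lists that share CD3 genes. The cDC2-like cluster also carried cDC1 markers, with 5 of them raised and a mean log2 fold of 1.34, against 2.62 for cDC2 markers. No separate cDC1 class was formed, so levels of cDC2-like cells may include cDC1 cells. Fibroblast-like cells, with 974 cells, were present in spite of the CD45 sort. Macrophage-like cells gave 39 to 373 cells and 520238 to 5927403 UMIs per mouse, and monocyte-like cells 22 to 844 cells and 232318 to 10105757 UMIs. The pools shared 805 barcode sequences, which 184 of the assigned cells carried. H2-K1, H2-D1 and the H2-Q genes are close copies of each other, so reads may be split between them and their single levels are uncertain.

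In macrophage-like cells the targeted gene did not follow its label in 1 mouse, and in monocyte-like cells another mouse did not either. Nr3c1 in macrophage-like cells was at 22.5, 23.1, 25.8 and 36.5 CPM in GRf/f-LysMCre mice with anti-PD-1 and at 40.0, 25.5, 36.4 and 78.6 CPM in GRf/f-LysMCre mice with isotype. It was at 58.3, 55.9, 57.5 and 51.2 CPM in GRf/f mice with anti-PD-1 and at 90.5, 64.2, 45.6 and 81.4 CPM in GRf/f mice with isotype. The mouse labelled GRf/f-LysMCre isotype mouse 4 was within the range of the GRf/f mice with isotype in macrophage-like cells and, at 70.9 CPM, in monocyte-like cells. The other 7 GRf/f-LysMCre mice were below every GRf/f mouse in macrophage-like cells. Since 3′ counting reads the end of the transcript and the labels do not name the deleted exon, Nr3c1 counts check the deletion only in part. In monocyte-like cells GRf/f-LysMCre isotype mouse 1 was also within their range, at 71.7 CPM, and at 40.0 CPM in macrophage-like cells it was not. Median changes in macrophage-like and monocyte-like cells and in unnamed cluster 0 that use the mouse labelled GRf/f-LysMCre isotype mouse 4 are given with and without it. GRf/f-LysMCre isotype mouse 1 was kept in both.

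All 10 genes were detected in every class described. Among the 12 classes with enough cells per mouse, regulatory T-like cells had the highest mean level for 7 of the 10. H2-K1 averaged 4038 ± 475 CPM in regulatory T-like cells (SD, n = 9 mice), 2892 ± 326 in CD4 T-like cells (n = 9), 2827 ± 352 in CD8 T-like cells (n = 15) and 2471 ± 271 in NK-like cells (n = 14). Below the lymphocytes came monocyte-like cells at 1603 ± 386 CPM (n = 16), cDC2-like cells at 1402 ± 272 (n = 10) and macrophage-like cells at 1397 ± 433 (n = 16). H2-K1 was lowest in neutrophil-like cells at 824 ± 240.3 CPM (n = 14) and in fibroblast-like cells at 755 ± 240.4 (n = 15). Its unnamed clusters lay between these, at 2254 ± 363 CPM in cluster 8 (led by Trdc and Klra1, n = 12), 1705 ± 393 in cluster 0 (led by H2-Ab1 and H2-DMb1, n = 15) and 1310.1 ± 482 in cluster 16 (led by Ccl8 and Cbr2, n = 7). These means mix the conditions in different proportions, since fewer mice with anti-PD-1 had enough regulatory T-like and cDC2-like cells. Over the isotype mice alone, H2-K1 averaged 1631 ± 353 CPM in macrophage-like, 1609 ± 368 in monocyte-like and 1429 ± 293 in cDC2-like cells (n = 8 each), so macrophage-like and monocyte-like cells changed places within their spread. Regulatory T-like cells were highest in those mice for 8 of the 10 genes, and neutrophil-like in place of fibroblast-like cells were lowest for H2-K1 and B2m.

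**Figure D1:**
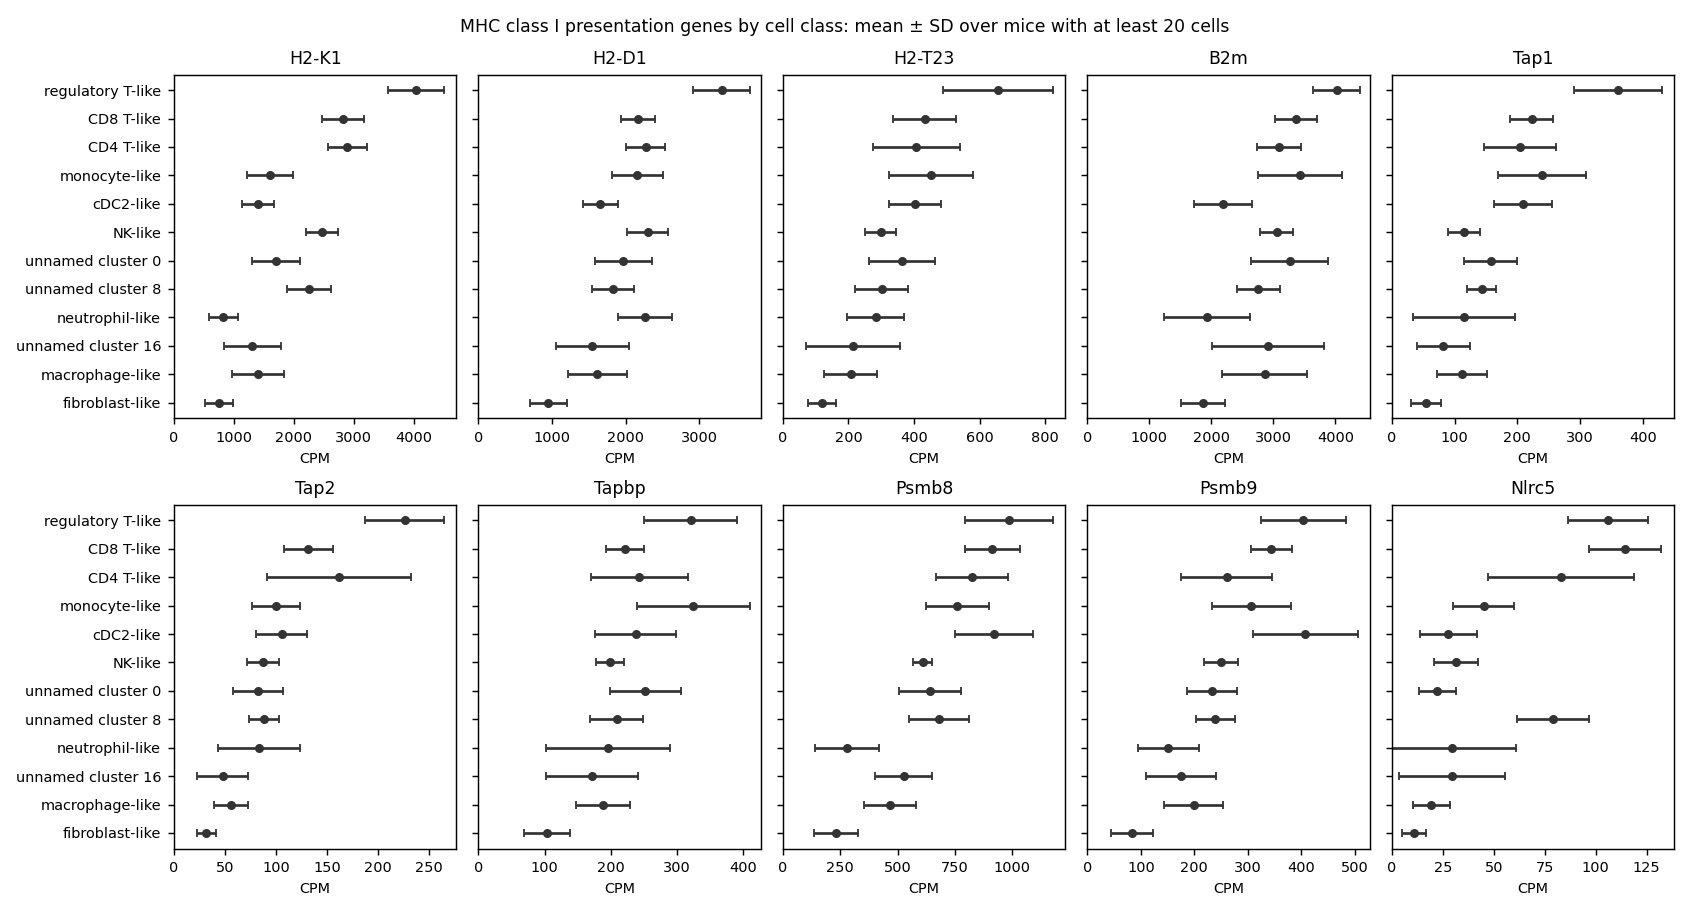
Level of each gene (CPM, x axis, from 0) in 12 cell classes (rows); points are means and bars SD over mice, each contributing 20 or more cells to a class. Regulatory T-like cells are at or near the top of every panel and fibroblast-like cells are the lowest in all 10, for H2-K1 at 4038 and 755 CPM.

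B2m varied least among the 10, 2.15-fold between its highest and lowest class, and Nlrc5 most, 10.4-fold. B2m averaged 4022 ± 376 CPM in regulatory T-like cells, 3432 ± 672 in monocyte-like cells, 3364 ± 339 in CD8 T-like cells and 1869 ± 357 in fibroblast-like cells. Nlrc5 averaged 114 ± 17.5 CPM in CD8 T-like cells, 106 ± 19.6 in regulatory T-like cells and 83.1 ± 35.8 in CD4 T-like cells. In myeloid classes Nlrc5 was lower, at 45.0 ± 14.8 CPM in monocyte-like, 27.7 ± 14.1 in cDC2-like and 19.4 ± 9.0 in macrophage-like cells, and it was lowest at 11 ± 5.9 in fibroblast-like cells. NK-like cells, at 31.4 ± 10.8 CPM of Nlrc5, were below monocyte-like cells, unlike the T-like classes.

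The peptide supply genes were spread differently. Psmb9 was highest in cDC2-like cells, at 407 ± 98.1 CPM, against 404 ± 79.6 in regulatory T-like, 306 ± 73.5 in monocyte-like and 199 ± 55.6 in macrophage-like cells. Psmb8 averaged 986 ± 194 CPM in regulatory T-like, 922 ± 170.0 in cDC2-like and 280.1 ± 139 in neutrophil-like cells. Tapbp was highest in monocyte-like cells, at 325 ± 84.9 CPM, with 321 ± 69.8 in regulatory T-like and 189 ± 40.9 in macrophage-like cells. Tap1 averaged 359.9 ± 70.3 CPM in regulatory T-like, 239 ± 70.4 in monocyte-like and 112 ± 40.3 in macrophage-like cells, and Tap2 226 ± 38.7, 99.8 ± 23.5 and 56.1 ± 16.7 in the same order. H2-D1 averaged 3301 ± 384 CPM and H2-T23 656 ± 167 CPM in regulatory T-like cells, against 949 ± 254 and 119 ± 43.3 in fibroblast-like cells. For Psmb9 and Tapbp the top classes did not differ beyond their spread.

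Neighbours in the order of mean levels were compared within mice by exact two-sided sign-flip permutation tests, with Benjamini-Hochberg adjustment over the 110 pairs of the 10 genes. Of these, 15 passed adjusted p 0.05. Regulatory T-like cells were above the next class in 9 of 9 mice for H2-D1 (NK-like next, log2 difference 0.52), H2-T23 (monocyte-like next, 0.54), B2m (monocyte-like next, 0.28) and Tap1 (monocyte-like next, 0.62), each with an exact adjusted p of 0.0331. For H2-K1 the step to CD4 T-like cells was 0.49 on the log2 scale and higher in 8 of 8 mice, with an exact adjusted p of 0.0506, which missed the threshold. With 8 mice all in one direction, the unadjusted exact p is already the smallest this test can give. The miss therefore reflects the number of mice and does not set H2-K1 apart. At the lower end, macrophage-like cells were above fibroblast-like cells for H2-T23 by 0.85 (14 of 15 mice, exact adjusted p = 0.0134) and for Nlrc5 by 0.84 (13 of 15 mice, exact adjusted p = 0.0161). Psmb8 was higher in macrophage-like than in neutrophil-like cells by 0.91 (13 of 14 mice, exact adjusted p = 0.0134). The other 95 neighbouring pairs did not pass. The clustering left out the 10 genes and the lists, given below, of further class I heavy chains and of peptide supply and loading. Other genes that vary with them were not left out.

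Free RNA from lysed cells adds counts of abundant genes to every class. C1qa, a complement gene of macrophages, averaged 5713 ± 543 CPM in macrophage-like cells, 356 ± 214 in neutrophil-like and 258 ± 181 in fibroblast-like cells. Among lymphocytes it averaged 428 ± 293 CPM in regulatory T-like, 363 ± 279 in CD4 T-like, 184 ± 63.0 in CD8 T-like and 111 ± 37.8 in NK-like cells. Summed over all mice, it was at 977 CPM in B-like and 681 CPM in mature dendritic-like cells. Such counts were not removed. Their part in the levels of any class, including the low ones of fibroblast-like and neutrophil-like cells, was not tested.

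The balance of the classical heavy chains differed between classes. H2-D1 counts were 2.86 ± 0.52 times the H2-K1 counts in neutrophil-like cells (SD, n = 14 mice, 2.19 to 3.88), 1.39 ± 0.22 times in monocyte-like and 1.19 ± 0.17 times in macrophage-like cells (n = 16 each). The ratio was 0.770 ± 0.057 in CD8 T-like cells (n = 15), 0.821 ± 0.074 in regulatory T-like cells (n = 9) and 0.931 ± 0.081 in NK-like cells (n = 14). Every neutrophil-like sample was above every lymphocyte sample of these 3 classes, whose highest value was 1.12 in NK-like cells. These ratios describe the counts of both genes and were not tested.

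Classes with too few cells per mouse are given as sums over all mice, with exact 95% Poisson intervals that cover counting error only. Mature dendritic-like cells (106 cells) had 1305 CPM of Psmb8 (1233 to 1380.3), 564 of Psmb9 (517 to 614) and 401 of Tapbp (361 to 443), and 4553 of B2m (4418 to 4692), all 4 above the means of the 12 larger classes. Plasmacytoid dendritic-like cells (81 cells) had 1073 CPM of H2-T23 (1001 to 1149), also above them, and 2427 of H2-K1 (2318 to 2540.4). B-like cells (98 cells) had 1310 CPM of H2-K1 (1206 to 1420) and 13.4 of Nlrc5 (4.91 to 29.1). Mast- or basophil-like cells (209 cells) had 965 CPM of H2-K1 (909 to 1024) and 57.8 of Tap1 (44.7 to 73.6).

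Among monocyte-like cells the genes separated the clusters widely. Cluster 2, led by the interferon-induced chemokines Cxcl9 and Cxcl10, averaged 2395 ± 283 CPM of H2-K1, 669 ± 93.4 of H2-T23, 363 ± 41.3 of Tap1 and 70.0 ± 10.6 of Nlrc5 (SD, n = 13 mice). Cluster 15, led by Saa3 and Chil3 together with Ifi211 and Ifi204, averaged 1472 ± 126, 549.6 ± 68.7, 312 ± 37.5 and 57.3 ± 19.99 CPM of the same genes (n = 6). Cluster 4, led by Saa3, Chil3 and Prtn3, averaged 936 ± 163, 270.3 ± 59.8, 134 ± 42.2 and 19.3 ± 8.91 CPM (n = 13), and cluster 13, led by Mmp12, Nos2 and Inhba, 817 ± 231, 208 ± 64.7, 113 ± 41.8 and 21.0 ± 10.8 CPM (n = 7). All 10 genes were highest in cluster 2. These levels describe clusters built from the same cells and were not tested.

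**Figure D2:**
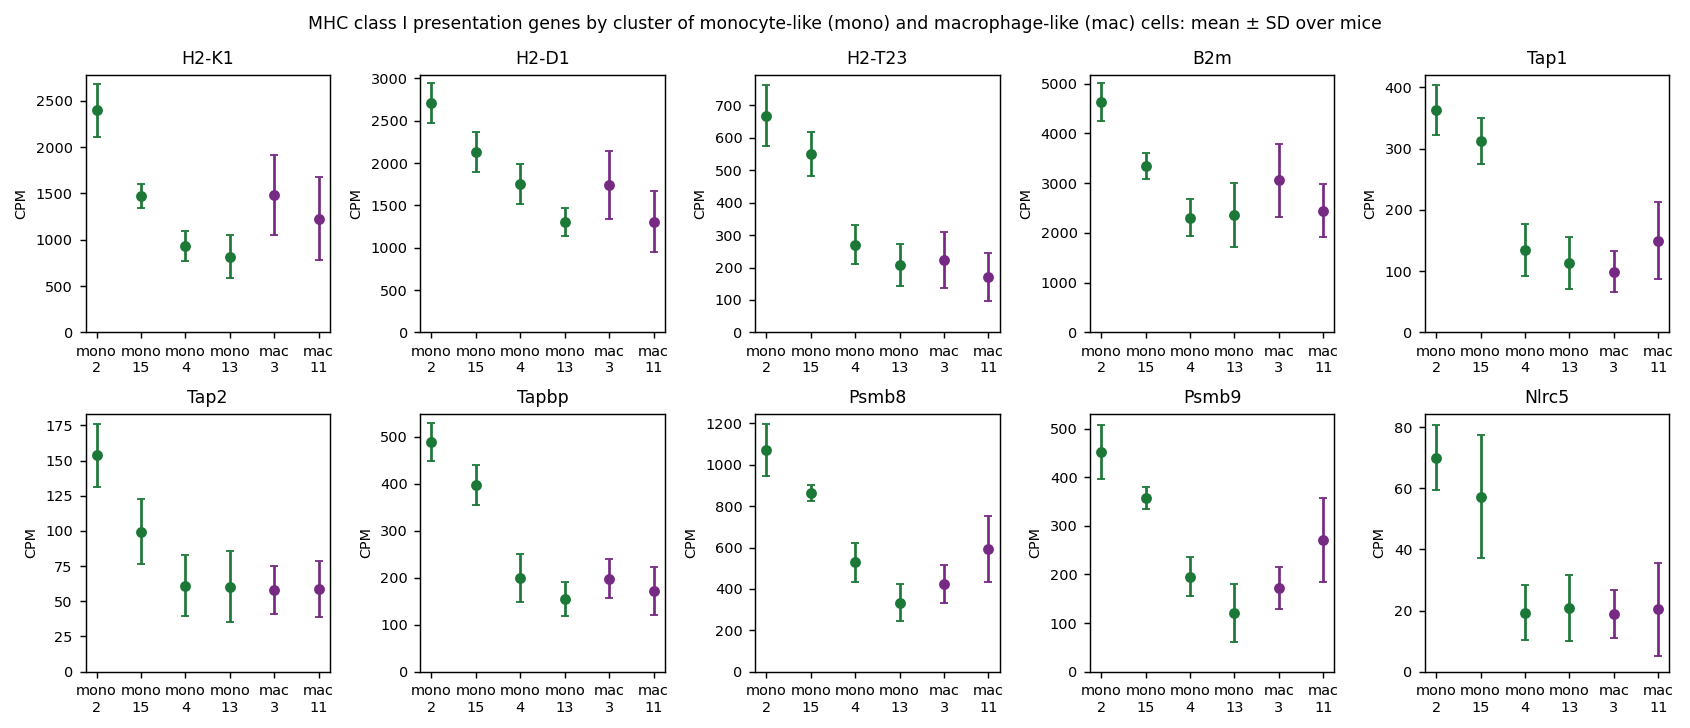
Level of each gene (CPM, y axis, from 0) in the 4 monocyte-like clusters (green) and the 2 macrophage-like clusters (purple); points are means and bars SD over mice, each contributing 20 or more cells to a cluster. Cluster 2 is the highest in every panel, for H2-T23 at 669 CPM against 208 CPM in cluster 13.

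The means of the 2 macrophage-like clusters differed in another way. Cluster 11, led by the cell division genes Birc5 and Pclaf, had 594 ± 161 CPM of Psmb8 and 271 ± 86.4 of Psmb9 (n = 11), against 423 ± 91.4 and 172 ± 43.4 in cluster 3, led by Fcrls, Ms4a7 and Pf4 (n = 16). For the heavy chains the order of means was the opposite, with 1226 ± 449 CPM of H2-K1 and 171 ± 73.9 of H2-T23 in cluster 11 and 1482 ± 434 and 224 ± 86.2 in cluster 3. These heavy chain differences lay within the spread of the mice. The means of the 2 clusters rest on different sets of mice, 11 and 16, and were not tested within mice.

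Anti-PD-1 was compared with isotype, and GRf/f-LysMCre with GRf/f, by edgeR's quasi-likelihood test on the counts summed per mouse, with the pool as a covariate and Benjamini-Hochberg adjustment over all genes tested in a class. In macrophage-like cells all 10 genes were among the 9412 tested. With anti-PD-1, all 10 were lower than with isotype in GRf/f mice, with a median log2 change of -0.66 against 0.00 over all genes, and none passed adjusted p 0.05. In the background 0.0106% of all genes passed. At an unadjusted p of 0.05, 8 of the 10 were lower, against 6.77% of all genes. In GRf/f-LysMCre mice the median change with anti-PD-1 was -0.07, and none passed at either threshold, where 0.0% of all genes passed the adjusted and 4.26% the unadjusted one. GRf/f-LysMCre mice with anti-PD-1 were higher than GRf/f mice with anti-PD-1 for all 10 genes, with a median of 0.55, and 6 of the 10 passed the unadjusted p, against 5.62% of all genes. The 4 groups share mice between these comparisons, so the comparisons are not independent of each other.

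**Figure D3:**
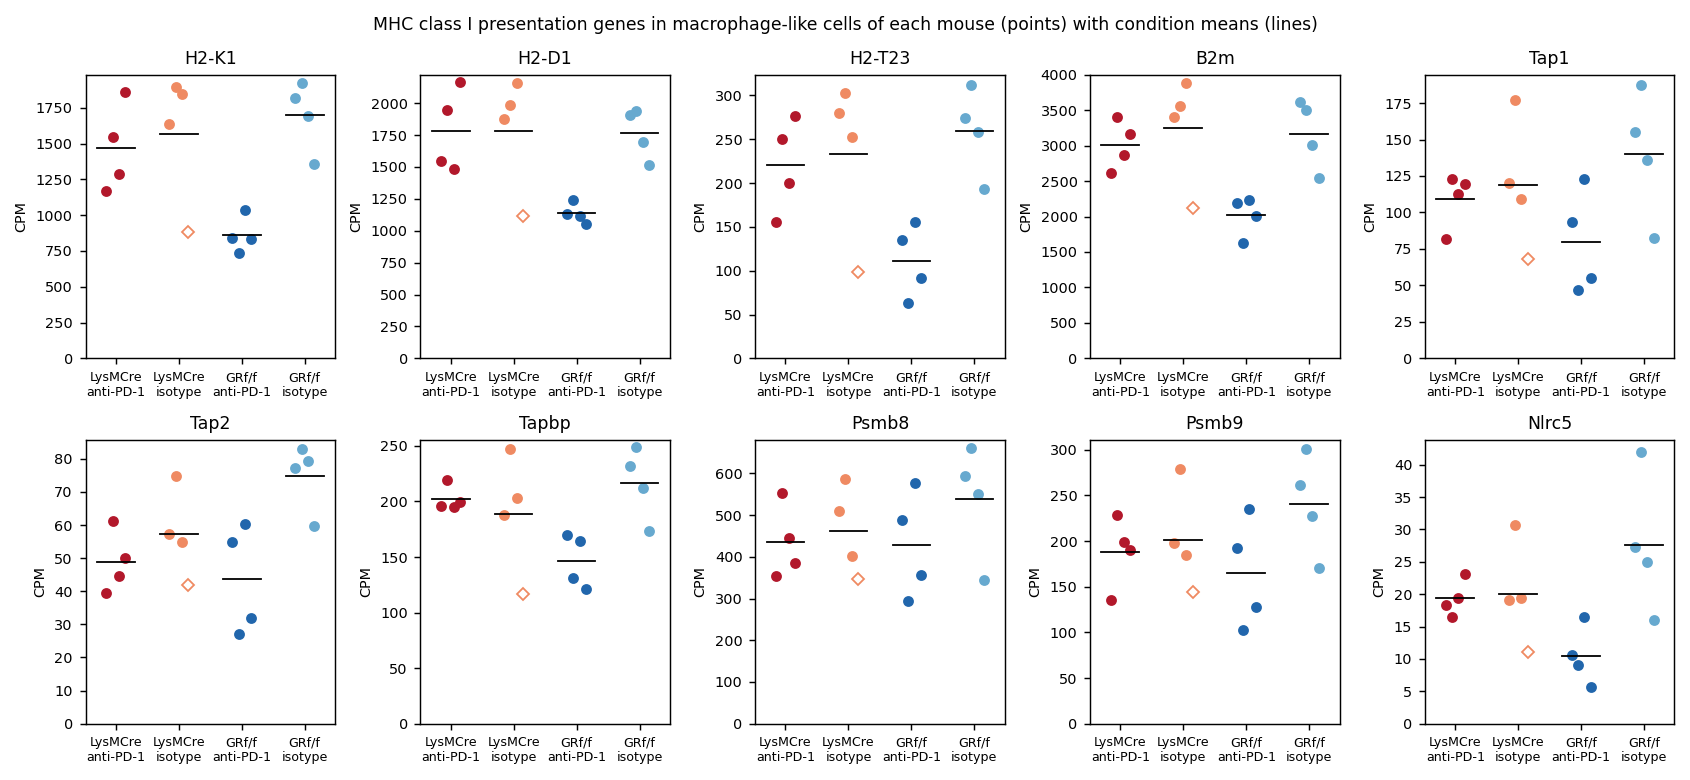
Level of each gene (CPM, y axis, from 0) in the macrophage-like cells of each mouse (points) with the mean of the 4 mice (lines); the open diamond is the mouse labelled GRf/f-LysMCre isotype mouse 4. For H2-K1, H2-D1, H2-T23, B2m and Tapbp the 4 GRf/f mice with anti-PD-1 all lie below the 4 GRf/f mice with isotype and below the 4 GRf/f-LysMCre mice with anti-PD-1.

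H2-K1 in macrophage-like cells of GRf/f-LysMCre mice was at 1170.3, 1549, 1286 and 1863 CPM with anti-PD-1 and at 1637, 1893, 1845 and 880.5 CPM with isotype. H2-K1 was at 838, 734, 1034 and 835 CPM in GRf/f mice with anti-PD-1 and at 1816, 1923, 1692 and 1360.4 CPM with isotype. The GRf/f groups did not overlap, and the one low value among GRf/f-LysMCre mice with isotype belonged to the mouse labelled mouse 4. The log2 change of H2-K1 with anti-PD-1 in GRf/f mice was -0.94 (SE 0.22, edgeR adjusted p = 0.09999), and in GRf/f-LysMCre mice it was -0.09 (SE 0.22). Between genotypes with anti-PD-1 H2-K1 was higher by 0.80 on the log2 scale in GRf/f-LysMCre mice (SE 0.22, edgeR adjusted p = 0.354).

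H2-D1 was at 1543, 1943, 1484 and 2168 CPM in GRf/f-LysMCre mice with anti-PD-1 and at 1874, 1982, 2159 and 1113 CPM with isotype. H2-D1 was at 1134, 1238, 1119 and 1053 CPM in GRf/f mice with anti-PD-1 and at 1908, 1939, 1697 and 1515 CPM with isotype. The spread within GRf/f mice with anti-PD-1 was narrow and lay below both the isotype group and the GRf/f-LysMCre mice with anti-PD-1. H2-D1 differed by -0.59 on the log2 scale with anti-PD-1 in GRf/f mice (SE 0.18, edgeR adjusted p = 0.217).

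H2-T23 was at 156, 251, 200.5 and 277 CPM in GRf/f-LysMCre mice with anti-PD-1 and at 279.8, 303, 252 and 98.2 CPM with isotype. In GRf/f mice H2-T23 was at 135, 63.5, 155 and 92.0 CPM with anti-PD-1 and at 275, 311, 258 and 193 CPM with isotype. The highest GRf/f mouse with anti-PD-1 was just below the lowest GRf/f-LysMCre mouse with anti-PD-1. Its log2 change with anti-PD-1 in GRf/f mice was -1.15 (SE 0.32, edgeR adjusted p = 0.163).

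B2m was at 2619, 3407, 2864 and 3169.7 CPM in GRf/f-LysMCre mice with anti-PD-1 and at 3398, 3558, 3889 and 2120.3 CPM with isotype. B2m was at 2188, 1632, 2232 and 2009 CPM in GRf/f mice with anti-PD-1 and at 3609, 3499, 3015 and 2539 CPM with isotype. The light chain thus had the same arrangement of groups as the heavy chains, at a log2 change of -0.60 with anti-PD-1 in GRf/f mice (SE 0.18, edgeR adjusted p = 0.209).

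Among the loading genes, Tapbp was at 196, 219, 195 and 199.9 CPM in GRf/f-LysMCre mice with anti-PD-1 and at 188, 247, 204 and 117 CPM with isotype. Tapbp was at 169.9, 131, 164 and 121 CPM in GRf/f mice with anti-PD-1 and at 232, 249, 212 and 173 CPM with isotype. Tapbp groups were apart by a small gap, and the log2 change with anti-PD-1 in GRf/f mice was -0.51 (SE 0.18, edgeR adjusted p = 0.270). Tap1 was at 81.6, 123, 113 and 119 CPM in GRf/f-LysMCre mice with anti-PD-1 and at 119.9, 177, 109 and 68.0 CPM with isotype. In GRf/f mice Tap1 was at 93.6, 46.8, 123 and 55.2 CPM with anti-PD-1 and at 155, 187, 136 and 82.3 CPM with isotype, so these groups overlapped. Tap2 was at 39.4, 61.2, 44.5 and 49.98 CPM in GRf/f-LysMCre mice with anti-PD-1 and at 57.4, 74.7, 54.9 and 42.0 CPM with isotype. Tap2 was at 55.0, 27.2, 60.2 and 32.0 CPM in GRf/f mice with anti-PD-1 and at 77.3, 82.96, 79.4 and 59.6 CPM with isotype, which overlapped by 1 mouse of each group. The log2 changes of Tap1 and Tap2 with anti-PD-1 in GRf/f mice were -0.74 (SE 0.31) and -0.72 (SE 0.23), at edgeR adjusted p-values of 0.345 and 0.234.

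The immunoproteasome subunits had the smallest fitted changes of the 10 with anti-PD-1 in GRf/f mice. Psmb8 was at 354, 553, 446 and 386 CPM in GRf/f-LysMCre mice with anti-PD-1 and at 509, 588, 401 and 346 CPM with isotype. Psmb8 was at 488, 293, 577 and 356 CPM in GRf/f mice with anti-PD-1 and at 594, 662, 551 and 344 CPM with isotype, with wide overlap. Psmb9 was at 135, 229, 198 and 190.3 CPM in GRf/f-LysMCre mice with anti-PD-1 and at 198, 279, 185 and 144 CPM with isotype. In GRf/f mice Psmb9 was at 193, 103, 235 and 128 CPM with anti-PD-1 and at 262, 301, 227 and 170.3 CPM with isotype, again overlapping. Their log2 changes with anti-PD-1 in GRf/f mice were -0.26 for Psmb8 (SE 0.22) and -0.48 for Psmb9 (SE 0.25), and these 2 members did not reach an unadjusted p of 0.05. The H2-K1 to Psmb8 count ratio was 3.45 ± 0.94 in GRf/f-LysMCre mice with anti-PD-1 and 3.39 ± 0.86 with isotype, and 2.09 ± 0.39 in GRf/f mice with anti-PD-1 and 3.24 ± 0.48 with isotype (SD, n = 4 each).

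Nlrc5, the transactivator, was at 18.3, 16.5, 19.5 and 23.1 CPM in GRf/f-LysMCre mice with anti-PD-1 and at 19.1, 30.6, 19.4 and 11.1 CPM with isotype. Nlrc5 was at 10.7, 9.07, 16.4 and 5.69 CPM in GRf/f mice with anti-PD-1 and at 27.3, 42.0, 25 and 16.1 CPM with isotype. The highest GRf/f mouse with anti-PD-1 was just above the lowest with isotype, and every GRf/f-LysMCre mouse with anti-PD-1 was above every GRf/f mouse with anti-PD-1. Nlrc5 had the largest fitted difference of the 10, -1.38 on the log2 scale with anti-PD-1 in GRf/f mice (SE 0.34, edgeR adjusted p = 0.128). It is also the gene with the fewest counts, so its values carry the most counting error.

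The 4 GRf/f mice with anti-PD-1 were all below the 4 with isotype for 5 of the 10 genes, against 5.23% of all 9412 genes with such a lower group. GRf/f-LysMCre mice with anti-PD-1 were all above GRf/f mice with anti-PD-1 for 6 of the 10, the same 5 and Nlrc5, against 2.61% of all genes. In that genotype comparison the smallest adjusted p of the 10 was 0.354 by edgeR, and 0.0% of all genes passed. GRf/f-LysMCre against GRf/f with isotype gave a median of -0.15 and no member past either threshold, against 0.0106% of all genes past the adjusted and 2.91% past the unadjusted p. The interaction, the difference between the genotypes in the effect of anti-PD-1, was positive for all 10 with a median of 0.61, and 5 of the 10 passed the unadjusted p, against 3.36% of all genes. None of the 10 passed the adjusted interaction test, where the smallest adjusted p was 0.872 by edgeR and 0.0% of all genes passed. A difference in the effect of anti-PD-1 between the genotypes was therefore not shown by the adjusted test.

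Leaving out the mouse labelled GRf/f-LysMCre isotype mouse 4 left the values of the GRf/f mice nearly where they were and narrowed the estimate of the spread. H2-K1 and H2-T23 then passed, with log2 changes of -0.95 (SE 0.16, edgeR adjusted p = 0.0169) and -1.16 (SE 0.24, adjusted p = 0.0448) with anti-PD-1 in GRf/f mice, where 0.447% of all genes passed. Without that mouse the median change with anti-PD-1 in GRf/f-LysMCre mice was -0.28, with all 10 lower and none past an unadjusted p of 0.05, and the median interaction was 0.43. In the interaction 4 of the 10 were higher at the unadjusted p, against 2.84% of all genes, and none passed the adjusted p. GRf/f-LysMCre against GRf/f then had a median of 0.55 with anti-PD-1 and of 0.02 with isotype. By DESeq2 with all 16 mice, H2-K1 (adjusted p = 0.0165) and Nlrc5 (adjusted p = 0.0394) passed with anti-PD-1 in GRf/f mice, where 0.946% of all genes passed. Averaged over the genotypes, anti-PD-1 gave a median of -0.38 and no member past adjusted p 0.05 with all mice, where 0.0956% of all genes passed. Without that mouse the median of this average was -0.48. H2-K1 then passed in this average as well, at -0.63 (edgeR adjusted p = 0.0334), where 0.223% of all genes passed. With hashtags called by the ratio of the highest to the next hashtag, the median was -0.38 for anti-PD-1 in GRf/f mice and 0.30 for the genotypes with anti-PD-1, and none of the 10 passed. Under that rule the changes with anti-PD-1 in GRf/f mice were -0.57 for Nlrc5, -0.57 for H2-T23, -0.53 for H2-K1 and -0.20 for Tap2, and the genotype difference of Nlrc5 with anti-PD-1 was 0.27.

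Within pools, each of which held 2 mice per group, the median change with anti-PD-1 in GRf/f mice was -0.84 in pool E5 and -0.47 in pool E6. H2-K1 passed in pool E5 alone, at -1.20 (edgeR adjusted p = 0.0403, 0.127% of all genes), and not in pool E6, at -0.68 (adjusted p = 0.669). The median genotype difference with anti-PD-1 was 0.55 in pool E5 and 0.53 in pool E6. The change with anti-PD-1 in GRf/f-LysMCre mice differed in sign between pools, with medians of -0.34 in pool E5 and 0.20 in pool E6. In macrophage-like cluster 3 alone, without the dividing cluster, the median change with anti-PD-1 in GRf/f mice was -0.68 and the genotype difference with anti-PD-1 was 0.63, and H2-K1 was at -0.85 (edgeR adjusted p = 0.264) with anti-PD-1 in GRf/f mice.

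Other measures also differed between these groups in macrophage-like cells, and the first of them was lower with anti-PD-1 in both genotypes. The summed level of 17 CD8 T and NK cell markers was 9.85 to 22.3 CPM in GRf/f-LysMCre mice with anti-PD-1 and 37.6 to 88.7 CPM with isotype, and 10.5 to 27.9 CPM in GRf/f mice with anti-PD-1 and 37.8 to 257 CPM with isotype. In single GRf/f mice up to 11 of the 17 markers were at 0 with anti-PD-1 and up to 6 with isotype. The summed level of 10 monocyte markers was 531 to 1030 CPM and 420 to 1580.0 CPM in GRf/f-LysMCre mice with anti-PD-1 and isotype, and 404 to 1082 CPM and 857 to 1843 CPM in GRf/f mice with anti-PD-1 and isotype. Median UMIs per cell were 12359 to 15722 in GRf/f-LysMCre mice with anti-PD-1 and 10179.5 to 15893 with isotype, and 15368 to 20456 in GRf/f mice with anti-PD-1 and 11414 to 13938 with isotype. The dividing cluster 11 made up 22.7 ± 8.1% and 22.7 ± 10.2% of macrophage-like cells in GRf/f-LysMCre mice with anti-PD-1 and isotype, and 35.0 ± 12.0% and 29.4 ± 4.6% in GRf/f mice (SD, n = 4 each). The part of these measures in the result was not tested.

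Further genes of the pathway were read from lists chosen by function. Of 12 class I heavy chains outside the 10 genes, 7 were tested in macrophage-like cells. All 7 were lower with anti-PD-1 in GRf/f mice with a median log2 change of -1.01. At an unadjusted p of 0.05, 4 of the 7 were lower, against 637 of all 9412 genes. H2-Q6 is a Qa-2 type heavy chain gene nearly identical to H2-Q7. Averaged over the genotypes, H2-Q6 fell by 1.83 on the log2 scale with anti-PD-1 (edgeR adjusted p = 0.0431). H2-Q6 averaged 21.6 ± 10.2 CPM in GRf/f-LysMCre mice with anti-PD-1 and 50.2 ± 25.6 CPM with isotype, and 9.15 ± 1.46 CPM in GRf/f mice with anti-PD-1 and 56.6 ± 23.2 CPM with isotype (SD, n = 4 each). Reads shared with H2-Q7, which differed by -1.37 in the same average (adjusted p = 0.130), make the single values uncertain. Klrd1, which encodes the CD94 chain of NK cell receptors, also fell by 2.73 (edgeR adjusted p = 0.0197), at a mean under 10 CPM in macrophage-like cells. Klrd1 is itself among the NK markers summed above. Of 12 genes of receptors for class I molecules, Klrd1, Klrk1, Pirb and Lilrb4a were tested, and 3 of the 4 were lower with anti-PD-1 in GRf/f mice, with a median of -0.98.

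The other lists had medians closer to 0, apart from MHC class II. Of 8 genes of peptide supply and loading, 6 were lower with anti-PD-1 in GRf/f mice, with a median of -0.14, and the smallest p-values were for Erap1, the trimming aminopeptidase of the endoplasmic reticulum (-0.45), and Psme1, a subunit of the proteasome activator PA28 (-0.32). All 10 constitutive proteasome genes had a positive change, with a median of 0.19. Of them 2, Psmb6 (0.31) and Psmb7 (0.31), passed an unadjusted p of 0.05, where 524 of all 9412 genes were higher. Of 16 genes of interferon signalling and class I regulation, 14 were lower, with a median of -0.32. Of these, 7 passed an unadjusted p of 0.05, where 637 of all 9412 genes were lower. The smallest p-values in that list were those of Stat2 (-1.27) and Jak2 (-1.08), which carry interferon signals. All 10 MHC class II genes were lower with a median of -0.71, and the smallest p-values were those of H2-Oa (-2.93), a chain of the peptide-exchange modulator H2-O, and H2-DMb2 (-1.36), a chain of the exchange factor H2-M. No gene of these 4 lists passed adjusted p 0.05 in that comparison, where the members' own median was -0.66 and that of all genes 0.00.

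Between genotypes with anti-PD-1, the same lists ran the other way in macrophage-like cells. All 7 further heavy chains were higher in GRf/f-LysMCre mice with a median of 0.68, and the smallest p-values were those of H2-Q4 (0.88) and H2-T22 (0.66). Of the 10 class II genes, 9 were higher, with a median of 0.76. An unadjusted p of 0.05 was passed by 5, with H2-Aa (1.13) and H2-Eb1 (1.11) the smallest in p, where 529 of all 9412 genes were higher. Of the 16 interferon signalling genes, 15 were higher, with a median of 0.29, and Tyk2 (0.62), a kinase of the type I interferon receptor, had one of the smallest p-values. All 10 constitutive proteasome genes were lower, with a median of -0.18, Psmb5 (-0.36) and Psmb6 (-0.27) having the smallest p-values. None of these genes passed adjusted p 0.05. The 2 comparisons share the GRf/f mice with anti-PD-1.

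In monocyte-like cells all 10 genes were tested, among 8499. With anti-PD-1 the median log2 change was 0.19 in GRf/f-LysMCre mice and -0.10 in GRf/f mice. GRf/f-LysMCre against GRf/f had a median of 0.11 with anti-PD-1 and of -0.24 with isotype, and the interaction had a median of 0.32. Without the mouse labelled GRf/f-LysMCre isotype mouse 4, the median with anti-PD-1 was -0.02 in GRf/f-LysMCre mice and -0.12 in GRf/f mice, the genotype difference with anti-PD-1 was 0.13 and the interaction was 0.12. With all 16 mice no member passed even an unadjusted p of 0.05 in any of these by edgeR, against 11.5% of all genes for anti-PD-1 in GRf/f mice, 8.54% for the genotypes with anti-PD-1 and 4.99% for the interaction. At the adjusted threshold 0.0353% of all genes passed for anti-PD-1 in GRf/f mice and 0.0% in the other 4 comparisons.

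**Figure D4:**
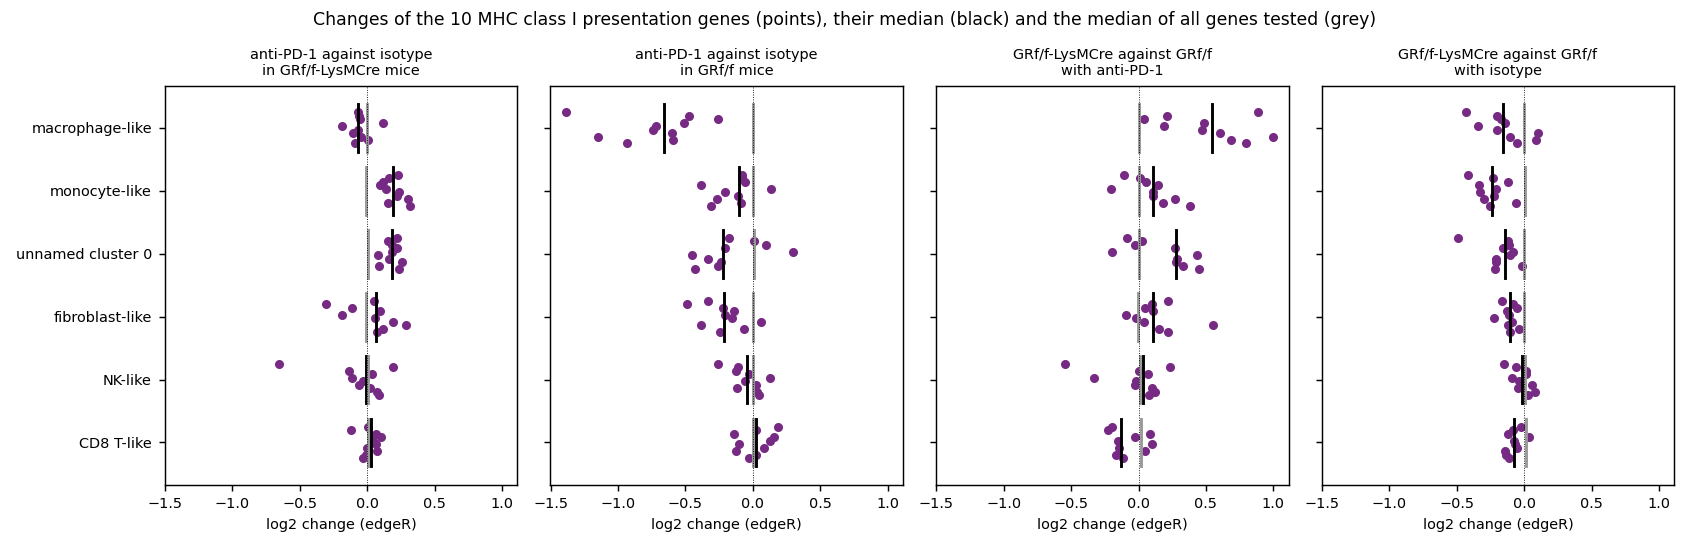
Fitted log2 change (x axis) of each of the 10 genes (points) in 6 cell classes (rows) for 4 comparisons (panels); black bars are medians of the 10 genes and grey bars medians of all genes tested in that class. The points of macrophage-like cells are all below 0 for anti-PD-1 in GRf/f mice and all above 0 for the genotypes with anti-PD-1, while the medians of the other classes lie closer to 0.

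The mice spread widely within groups in monocyte-like cells. H2-K1 was at 1498, 2245, 1955 and 1576 CPM in GRf/f-LysMCre mice with anti-PD-1 and at 1453, 1794, 1767 and 768 CPM with isotype. H2-K1 was at 1077, 956, 1709 and 1763 CPM in GRf/f mice with anti-PD-1 and at 1859.9, 1694, 1629 and 1906 CPM with isotype. GRf/f mice 1 and 2 with anti-PD-1, both of pool E5, were low and mice 3 and 4, both of pool E6, were near the isotype group. Tap1 showed the same split, with 202, 81.8, 300.5 and 284 CPM in GRf/f mice with anti-PD-1 and 299, 301, 224 and 275 CPM with isotype. Of the 2 low mice, mouse 1 gave 425 monocyte-like cells and mouse 2 gave 22, with 222 UMIs of H2-K1 and 19 of Tap1. Within pool E5 the median change of the 10 genes with anti-PD-1 in GRf/f mice was -0.61, and within pool E6 it was 0.21. With both pools and without GRf/f mouse 2 with anti-PD-1, that median was 0.02. The mouse labelled GRf/f-LysMCre isotype mouse 4 was the lowest of all 16 mice for H2-K1, and without it the median genotype difference with isotype was -0.02. H2-K1 then passed an unadjusted p of 0.05 for the genotypes with anti-PD-1, at 0.41 (edgeR adjusted p = 0.514), against 8.58% of all genes.

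The makeup of the monocyte-like class also differed between these mice. Cluster 13, in which the genes were low, made up 15.8 ± 5.1% of monocyte-like cells in GRf/f-LysMCre mice with anti-PD-1 and 10.3 ± 7.8% with isotype, and 28.6 ± 19.7% in GRf/f mice with anti-PD-1 and 5.58 ± 4.11% with isotype (SD, n = 4 each). Cluster 2, in which they were high, made up 47.7 ± 16.3% and 38.5 ± 14.98% in GRf/f-LysMCre mice with anti-PD-1 and isotype, and 38.4 ± 25.3% and 47.2 ± 5.5% in GRf/f mice with anti-PD-1 and isotype. In GRf/f mice with anti-PD-1 the share of cluster 2 ran between 13.6% and 64.9%. The part of these shares in the levels was not tested.

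Unnamed cluster 0 was led by MHC class II genes with Ccr2 and Fcgr2b. With anti-PD-1 the median was 0.19 in GRf/f-LysMCre mice and -0.22 in GRf/f mice, of which 3 had enough cells. Without the mouse labelled GRf/f-LysMCre isotype mouse 4, the value of 0.19 was -0.02. H2-K1 was at 1703, 1916, 1887 and 2025 CPM in GRf/f-LysMCre mice with anti-PD-1 and at 1630.3, 2336, 1672 and 813 CPM with isotype. In GRf/f mice H2-K1 was at 1258, 1605 and 1173 CPM with anti-PD-1 and at 2229, 1728, 1822 and 1778 CPM with isotype. These GRf/f values did not overlap, and how many of all genes did the same in this cluster was not counted. The genotype difference with anti-PD-1 had a median of 0.28, and with isotype of -0.14, and the interaction had a median of 0.42. Without that mouse these were 0.29, 0.04 and 0.20. No member passed adjusted p 0.05, where 0.0% of all 7566 genes passed for anti-PD-1 in GRf/f mice, 0.0397% for the genotypes with anti-PD-1 and 0.0132% with isotype. At an unadjusted p of 0.05, no member passed for anti-PD-1 in GRf/f mice (7.06% of all genes) or for the genotypes with anti-PD-1 (8.35%). H2-K1 alone passed it in the interaction, at 0.66 (SE 0.29, against 5.23% of all genes), and its edgeR adjusted p was 0.930. Without the mouse labelled GRf/f-LysMCre isotype mouse 4, H2-K1, H2-D1, B2m and Tap1 passed an unadjusted p of 0.05 for anti-PD-1 in GRf/f mice (7.56% of all genes) and for the genotypes with anti-PD-1 (9.18%), and none the adjusted p.

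Lymphocyte and fibroblast-like classes showed small median differences, while single members differed more. In NK-like cells the median change with anti-PD-1 was -0.01 in GRf/f-LysMCre mice and -0.04 in GRf/f mice, and in CD8 T-like cells 0.03 and 0.02. GRf/f-LysMCre against GRf/f with anti-PD-1 gave 0.04 in NK-like and -0.13 in CD8 T-like cells. In fibroblast-like cells the medians were 0.06 with anti-PD-1 in GRf/f-LysMCre mice and -0.21 in GRf/f mice, and 0.11 for the genotypes with anti-PD-1. That last median was -0.28 in pool E5 and 0.38 in pool E6. Single members reached -0.65 in NK-like cells with anti-PD-1 in GRf/f-LysMCre mice. In fibroblast-like cells they reached -0.49 with anti-PD-1 in GRf/f mice and 0.55 for the genotypes with anti-PD-1. No member passed adjusted or unadjusted p 0.05 in the 5 comparisons of these 3 classes by edgeR, and 0.0161% of all genes passed the adjusted p for the genotypes with anti-PD-1 in CD8 T-like cells and 0.0% in the rest. The unadjusted p was passed by 165 to 389 of all 5814 genes in NK-like cells, depending on the comparison. In CD8 T-like cells 228 to 427 of 6229 genes passed it, and in fibroblast-like cells 316 to 967 of 10110.

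For the classes that follow, too few mice with anti-PD-1 had 20 cells, and mainly the genotypes with isotype could be compared. In regulatory T-like cells all 10 genes were lower in GRf/f-LysMCre mice, with a median of -0.17, and Psmb8 (-0.31) and Psmb9 (-0.35) had unadjusted p-values under 0.05, against 3.7% of all genes, and edgeR adjusted p-values of 0.9997. In cDC2-like cells 9 of the 10 were lower, with a median of -0.16, and Tap2 (-0.41) had an unadjusted p of 0.0186, against 3.55% of all genes under 0.05. In CD4 T-like cells the median was 0.09 and in unnamed cluster 8 it was -0.12. No member passed the adjusted p, which 0.0191% of all genes passed in regulatory T-like cells, 0.0% in cDC2-like, 0.213% in CD4 T-like cells and 0.0328% in unnamed cluster 8. In neutrophil-like cells, the class with the fewest UMIs per cell among those tested, 9 of the 10 genes could be tested, since Nlrc5 did not pass the filter on low counts. Their median was -0.01 with anti-PD-1 in GRf/f-LysMCre mice and -0.12 for the genotypes with isotype, and none passed adjusted p 0.05, against 0.0% of all genes.

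In CD4 T-like cells, 6 genes of the class II list were tested, and 3 of them, H2-Aa, H2-Ab1 and H2-Eb1, fell in GRf/f-LysMCre mice with isotype at edgeR's adjusted p of 0.05. The median of the 6 was -2.13 on the log2 scale. H2-Aa averaged 130 ± 36.0 CPM in GRf/f-LysMCre mice with isotype (n = 3) and 630.2 ± 299 CPM in GRf/f mice with isotype (n = 4), in a class that lacks class II expression in mice, while it averaged 2669 CPM in macrophage-like cells. The part of free RNA in this difference was not tested.

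Likeness between the 10 genes was described by the Pearson correlation of class means on the log2(CPM + 1) scale over the 12 classes, which share mice and libraries. The 45 pairs had r between 0.594 and 0.969, with a median of 0.809. Among 10926 genes with at least 10 CPM in a class, H2-T23 was most like Rnf114 (r = 0.987), Tap1 (0.969) and Tap2 (0.947). H2-K1 was most like Il2rg (0.964), Rasgrp1 (0.960) and Ptpn7 (0.953), H2-D1 like Sirt7 (0.954), Elf4 (0.950) and Batf (0.948), and B2m like Plgrkt (0.941), Dok2 (0.907) and AW112010 (0.898). Tap1 was most like H2-T23, Rnf114 (0.966) and 9930111J21Rik1 (0.960), Tap2 like Oas1c (0.968), 9930111J21Rik1 (0.962) and Psme2b (0.960), and Tapbp like Rnf114 (0.955), Ppp4c (0.942) and H2-T23 (0.935). Psmb8 was most like Crip1 (0.973), Phf11b (0.966) and Lypla2 (0.944), Psmb9 like Coro2a (0.952), Myo1g (0.945) and Psmb8 (0.941), and Nlrc5 like Ifi214 (0.956), Tmc6 (0.955) and Idnk (0.938). Rnf114 was among the 3 most alike genes of 3 members and the members themselves were among the most alike of 4.

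The RNA of interferon gamma, the main inducer of these genes, was set against their levels over mice. Ifng in the summed T-like and NK-like cells was at 121, 653, 207 and 458 CPM in GRf/f-LysMCre mice with anti-PD-1 and at 63.6, 162, 176 and 122 CPM with isotype. Ifng was at 988, 390.1 and 400.3 CPM in GRf/f mice with anti-PD-1, where 1 mouse had too few lymphocytes, and at 151, 177, 230 and 282 CPM with isotype. These values are shares of lymphocyte RNA and not amounts of interferon gamma in the tumour. They came from 73 to 133 lymphocytes per mouse with anti-PD-1 and 182 to 611 with isotype. Ifng averaged 696 CPM in CD8 T-like and 12.9 CPM in regulatory T-like cells, so the makeup of the lymphocytes also enters them. Over 15 mice and 20 relations, Pearson's r ran between -0.417 and 0.050 for the 10 genes in macrophage-like cells and between -0.135 and 0.231 in monocyte-like cells, and Spearman's rho between -0.343 and 0.029 and between -0.132 and 0.329. The smallest permutation p was 0.126 for r and 0.209 for rho, with smallest adjusted values of 0.950 and 0.929, so no relation passed. Without the 2 mice farthest from the median Ifng, r ran between -0.404 and -0.130 in macrophage-like and between 0.029 and 0.354 in monocyte-like cells. In macrophage-like cells r ran between -0.714 and -0.043 in pool E5 (7 mice) and between -0.195 and 0.098 in pool E6 (8 mice), and in monocyte-like cells between -0.620 and 0.232 and between 0.373 and 0.563. The negative values of macrophage-like cells in pool E5 rested on few mice. Without the 2 mice farthest from the pool's median Ifng, r there ran between 0.282 and 0.929. In pool E6 it then ran between -0.280 and 0.688. For monocyte-like cells these ranges were -0.005 to 0.803 and 0.549 to 0.814. Spearman's rho of macrophage-like cells in pool E5 ran between -0.321 and 0.179 with all 7 mice.

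Antibodies to 2 receptors of class I molecules were read on the cell surface as antibody CPM, scaled to the summed antibody counts. CD8a, the co-receptor that binds the class I heavy chain, averaged 62371 ± 13428 on CD8 T-like cells of GRf/f-LysMCre mice with anti-PD-1 (n = 4) and 68461 ± 7313 with isotype (n = 4), and 66260.0 ± 11208 in GRf/f mice with anti-PD-1 (n = 3) and 64743 ± 11879 with isotype (n = 4). The groups overlapped, and edgeR adjusted p-values over 82 antibodies were 0.621 for anti-PD-1 in GRf/f mice and 0.684 in GRf/f-LysMCre mice. PIR-A/B, paired receptors of myeloid cells of which PIR-B binds class I, averaged 30926 ± 3558 on macrophage-like cells of GRf/f-LysMCre mice with anti-PD-1 and 24062 ± 3540 with isotype, and 29152 ± 8087 in GRf/f mice with anti-PD-1 and 25076 ± 3943 with isotype (n = 4 each). Its log2 change with anti-PD-1 was 0.51 in GRf/f-LysMCre mice (edgeR adjusted p = 0.272) and 0.29 in GRf/f mice (adjusted p = 0.409) over 87 antibodies, so neither passed. On monocyte-like cells 1 mouse, GRf/f isotype mouse 1, had 480587 antibody CPM of PIR-A/B, against 28097 to 54819 in the other 15 mice.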

How the data were processed

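CD45-sorted cells of 16 mice were read in 2 pools as raw UMI counts per gene, hashtag and antibody. The authors made these counts with Cell Ranger, given as 6.1.2 per the file headers and as 3.0.1, with mm10, per the submitters' processing notes. The deposited counts were used as they stand. Barcodes were kept from 500 UMIs and 200 genes upward, up to a mitochondrial share of 10%, 13914 in pool E5 and 14515 in pool E6. Hashtags were called with HTODemux in Seurat 5.3.0 (quantile 0.99), and cells with 1 hashtag were used, which removes doublets between mice but not within one. Mice are numbered only to name them. Clusters came from leidenalg 0.10.2 within scanpy 1.11.5 (2000 variable genes, 30 components, 15 neighbours, resolution 1.0) and were named from markers. The variable genes left out the 10 genes described and the lists of further class I heavy chains and of peptide supply and loading. Nr3c1 and mitochondrial, ribosomal protein, immunoglobulin and T cell receptor genes were left out as well. Counts were summed per mouse and class, with at least 20 cells per mouse and 3 mice per group, and tested with edgeR 4.0.16 (TMM, pool as covariate), all 4 groups sharing one estimate of the spread. DESeq2 1.42.0 was an alternative, beside other normalization, filters, hashtag rules, doublet removal, clustering settings, single pools and leaving out each mouse. The script was tested on simulated data with 200 changed genes. Text names all 10 genes, list genes past adjusted p 0.05 at 10 CPM or more, and otherwise the 2 of a list with the smallest p. A gene that this rule names is not reported here. Genes further named were chosen after their values were seen. The genes, lists and tests were chosen with earlier results of these data known. Intervals cover counting error only.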

Additional observations from a re-analysis of the deposited data

Results flagged for a closer look

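Among 110 groups of 4 mice (10 genes by cell class and condition), 3 held 1 mouse far from the other 3 by Dixon's criterion, and chance alone sets apart about 1 in 20 groups. In monocyte-like cells B2m was at 3156 CPM in GRf/f isotype mouse 3, against a median of 3898 CPM in the other 3 mice of the group. In unnamed cluster 0 B2m was at 4278 CPM in GRf/f isotype mouse 1, against a median of 3369 CPM in the other 3 mice. Nlrc5 in unnamed cluster 0 was at 9.27 CPM in the mouse labelled GRf/f-LysMCre isotype mouse 4, against a median of 21.1 CPM in the other 3 mice.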

How the results depend on the processing

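In macrophage-like cells no median change of the 10 genes moved by more than the spread between mice under 147 alternative values. None of the 10 was called there with all mice by edgeR. Counts of genes past adjusted p 0.05 moved under 6 and did not under 141. For anti-PD-1 in GRf/f mice the count, 0 by edgeR, was 2 by DESeq2 (0.946% of all genes), 7 with no filter on low counts (2.27%) and 1 in pool E5 alone (0.127%), and leaving out 1 mouse gave 0 to 2. Without the filter it was 4 for the genotypes with anti-PD-1 (1.51%) and 2 for the interaction (0.822%). The cause was not tested. Leaving out 1 mouse moved the median change for anti-PD-1 in GRf/f mice between -0.84 and -0.52, for the genotypes with anti-PD-1 between 0.43 and 0.68, for the interaction between 0.43 and 0.74, for the genotypes with isotype between -0.26 and 0.02 and for anti-PD-1 in GRf/f-LysMCre mice between -0.28 and 0.09. Calling hashtags by the ratio of the highest to the next left 19 of 19 single values with their sign, 13 of them over 1.5 times smaller. In other classes 4 medians moved and 767 did not under the alternatives, the 4 each in a single pool, among them unnamed cluster 0 for anti-PD-1 in GRf/f-LysMCre mice, at -0.23 in pool E5 and 0.61 in pool E6. The 15 neighbouring pairs that passed were 15 with a pseudocount of 10 and 0 over isotype mice alone, at most 8 mice a pair. So few mice limit how small the exact p can be, so the 0 over isotype mice does not show whether the order held. Using isotype mice alone, leaving out barcodes found in both pools and taking macrophage-like cluster 3 alone were chosen after seeing the data, and leaving out the barcodes or taking cluster 3 moved no count. Not run were alternatives for unnamed cluster 8 and re-clustered settings for unnamed clusters, and requiring 50 cells per mouse gave no value for the comparisons in macrophage-like cells that use GRf/f-LysMCre mice with anti-PD-1. No paired analysis was possible because the labels give mice no numbers shared across conditions. Depth limits the smaller classes, since mice with under 20 cells gave no value.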
